A study of Mus musculus with 24 samples.

Results

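Lysosome and autophagy genes were followed over 46 h in MMH-D3 cells, a mouse hepatocyte line derived from the liver of mice that carry a truncated, constitutively active Met receptor. The genes were chosen by name alone: the subunits of the vacuolar proton pump (Atp6v0 and Atp6v1), the cathepsins (Cts followed by 1 letter), the Lamp, Atg, Ulk, Wipi, Map1lc3 and Gabarap families, and Becn1, Sqstm1, Tfeb and Tfe3. The array held 74 such genes. Of these, 58 were measured, meaning that the probe set of highest mean reached a log2 value of 5 on at least 6 of the 24 arrays; 9825 genes in all were measured by that rule. The cells had been grown to confluence, differentiated for 14 days in medium with 2% DMSO, synchronized by serum shock and then left for 12 h. RNA was collected every 2 h from 12 to 58 h after the shock, with 1 Affymetrix array at each of the 24 times, so every group is the same cell line under the same treatment and the labels of the groups differ only in time. No time was replicated, and the labels do not say whether the times came from separate cultures. The p-values below therefore measure only the spread of arrays within 1 time course of 1 cell line. For comparisons of 8 h windows that is the spread between neighbouring arrays. For the rhythm and the linear term it is the scatter about a fitted curve. Where arrays were paired by clock time, it is the spread of the differences between arrays 24 h apart.

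Lysosomes are acidified by the vacuolar proton pump, whose V0 sector sits in the membrane and whose V1 sector hydrolyses ATP, and they break down proteins with the cathepsins. Autophagy delivers cytoplasm to lysosomes: the Ulk kinases and the Becn1 lipid kinase complex start a membrane, Atg9 and Atg2 proteins supply it with lipid, a conjugation cascade (Atg3, Atg5, Atg7, Atg10, Atg12, Atg16l1) links LC3 and GABARAP proteins to it, and Sqstm1 (p62) ties ubiquitinated cargo to LC3. The transcription factors TFEB and TFE3 drive many of these genes through an E-box-like element, and in the liver autophagy is known for supplying amino acids and lipids during fasting.

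The promoters were searched for short elements known for factors of this pathway and of its stress regulation. A RefSeq promoter window (GRCm38.p6, 250 bases before to 50 bases after the transcript start) was found for 46 of the 58 measured genes. The palindrome TCACGTGA, the core of the element bound by TFEB and TFE3, occurred in 6 of these 46 genes (13.0%), against 190 of 8019 other measured genes (2.37%) and 304 of all 27025 genes with a window (1.12%). The shorter E-box CACGTG, which TCACGTGA contains, occurred in 13 of the 46 (28.3%) and in 983 of the 8019 other measured genes (12.3%). TGATGNAA, the composite site of ATF4 and C/EBP factors, occurred in 2 of the 46 (4.35%; Atp6v0d1 and Ctsl) and in 206 of the 8019 (2.57%). Both strands were searched, each share counts genes with the letters in at least 1 window, and a match is not evidence of binding. The 6 genes with the palindrome are shown because they join the cathepsins, the proton pump and the conjugation cascade; each line runs 5′ to 3′ on the gene's strand from 150 bases before the start to 20 bases after it, with TCACGTGA in capitals.

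Ctsa: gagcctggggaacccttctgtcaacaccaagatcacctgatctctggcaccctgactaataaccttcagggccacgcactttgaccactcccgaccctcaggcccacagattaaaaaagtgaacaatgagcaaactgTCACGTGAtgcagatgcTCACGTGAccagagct
Ctsd: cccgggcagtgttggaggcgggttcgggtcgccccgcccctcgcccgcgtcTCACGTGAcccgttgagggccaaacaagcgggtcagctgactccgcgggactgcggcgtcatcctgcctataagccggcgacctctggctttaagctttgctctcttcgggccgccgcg
Atp6v0d1: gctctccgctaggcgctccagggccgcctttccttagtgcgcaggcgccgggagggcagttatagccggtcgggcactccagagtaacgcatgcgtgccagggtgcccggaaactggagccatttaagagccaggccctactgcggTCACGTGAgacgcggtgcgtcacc
Atp6v1a: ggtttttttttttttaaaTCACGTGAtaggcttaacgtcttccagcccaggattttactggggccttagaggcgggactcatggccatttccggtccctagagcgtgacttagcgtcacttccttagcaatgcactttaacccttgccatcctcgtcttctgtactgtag
Atg3: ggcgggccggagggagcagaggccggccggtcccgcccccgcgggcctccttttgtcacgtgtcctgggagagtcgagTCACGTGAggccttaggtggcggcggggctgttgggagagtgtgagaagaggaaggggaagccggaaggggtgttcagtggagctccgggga
Atp6v0e: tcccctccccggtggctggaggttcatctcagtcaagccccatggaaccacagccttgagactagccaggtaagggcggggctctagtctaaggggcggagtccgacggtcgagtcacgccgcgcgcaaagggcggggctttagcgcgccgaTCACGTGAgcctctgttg

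Cathepsin A (Ctsa, chr2:164833623-164833792, plus strand) held the palindrome at 2 places, beginning 13 bases before the start and at base 5 of the transcript. In Ctsd (chr7:142387808-142387977, minus strand) it began 99 bases before the start, and in Atg3 (chr16:45158679-45158848, plus strand) 72 bases before it. The 3 proton pump genes were Atp6v1a (chr16:44139240-44139409, minus strand), with the palindrome 132 bases before the start, Atp6v0d1 (chr8:105566045-105566214, minus strand), 4 bases before it, and Atp6v0e (chr17:26676246-26676415, plus strand), at base 3 of the transcript.

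The log2 values were compared in 3 ways and tested for a 24 h rhythm. The windows were placed around a late step, a change in many genes between 42 and 44 h that earlier results of these data had shown. The comparison across the late step set the 8 arrays of 44 to 58 h against the 8 arrays taken 24 h earlier, at 20 to 34 h, and so matches the clock phase. The comparison before it set 36 to 42 h against 12 to 18 h, also 24 h apart. The step itself set 44 to 50 h against the 4 arrays just before, 36 to 42 h, and there the clock phase differs. The comparisons share arrays, 36 to 42 h for the second and the last and 44 to 50 h for the first and the last, so their values are given side by side and are not independent of each other. A gene is said to have risen or fallen where limma's moderated test gave an adjusted p below 0.05, with adjustment over 18526 probe sets.

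The array of 40 h stood apart from the others, with a median of 8.96 over the measured probe sets against 9.04 to 9.14 on the other 23. The cells carried all 8 hepatocyte markers on the array above the filter, including Alb and Hnf4a, and none of the 8 fibroblast and stellate cell markers or the 5 endothelial markers. Of 9 macrophage and Kupffer cell markers, 3 passed (Csf1r, Cd68 and Cd14), while Ptprc, Adgre1, Clec4f, Lyz2, Itgam and Tyrobp lay near the lowest value in the table, 2.17. The summed hepatocyte markers (log2 of the sum) ran from 16.78 to 17.12 at 20 to 34 h and from 16.42 to 16.89 at 44 to 58 h. In that comparison 6 of the 8 fell and 1, Rbp4, rose, where 20.1% of all measured genes fell and 32.6% rose. The summed macrophage markers, which rest on Cd14, ran from 14.67 to 14.91 and from 14.61 to 14.93. The part of these shifts in the results below was not tested, and in a culture measured in bulk fewer cells of a type and less RNA per cell cannot be told apart.

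More of the genes were called across the late step, where 8 arrays were set against 8, than in the comparisons of 4 arrays with 4, and the changes ran both ways within the pathway. Of the 58 genes, 24 were higher at 44 to 58 h than at 20 to 34 h and 10 were lower, led by Atg9b, Sqstm1 and Atg16l2 upward and by Atp6v0e2, Ulk2, Atg9a and Tfeb downward in size. These are 41.4% and 17.2% of the genes, where 32.6% of all measured genes were higher and 20.1% lower; the median change was 0.11 on the log2 scale for the 58 and 0.05 for all. Rescaling moved the split, to 20 higher and 14 lower after quantile normalization and to 19 and 13 with each array centred on its median. The median change of all genes moved with it, to -0.004 and -0.008. Of the calls on the deposited values, 18 of the 24 higher and 8 of the 10 lower held when any single array was left out and under each of 4 other settings of scaling, filter and variance prior. A linear term over all 24 arrays, in place of the windows, did not call 13 of the 34: Tfeb, Gabarap, Atp6v0d1 and Atp6v1d among those that fell, and Atp6v0a2, Atp6v1c1, Atp6v1g1, Atp6v1h, Atg3, Atg5, Atg12, Atg14 and Wipi2 among those that rose. With the arrays paired by clock time, an alternative chosen after seeing the data, 31 of the 34 calls held, and the falls of Ctso, Atp6v0d1 and Atp6v1d did not.

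**Figure D1:**
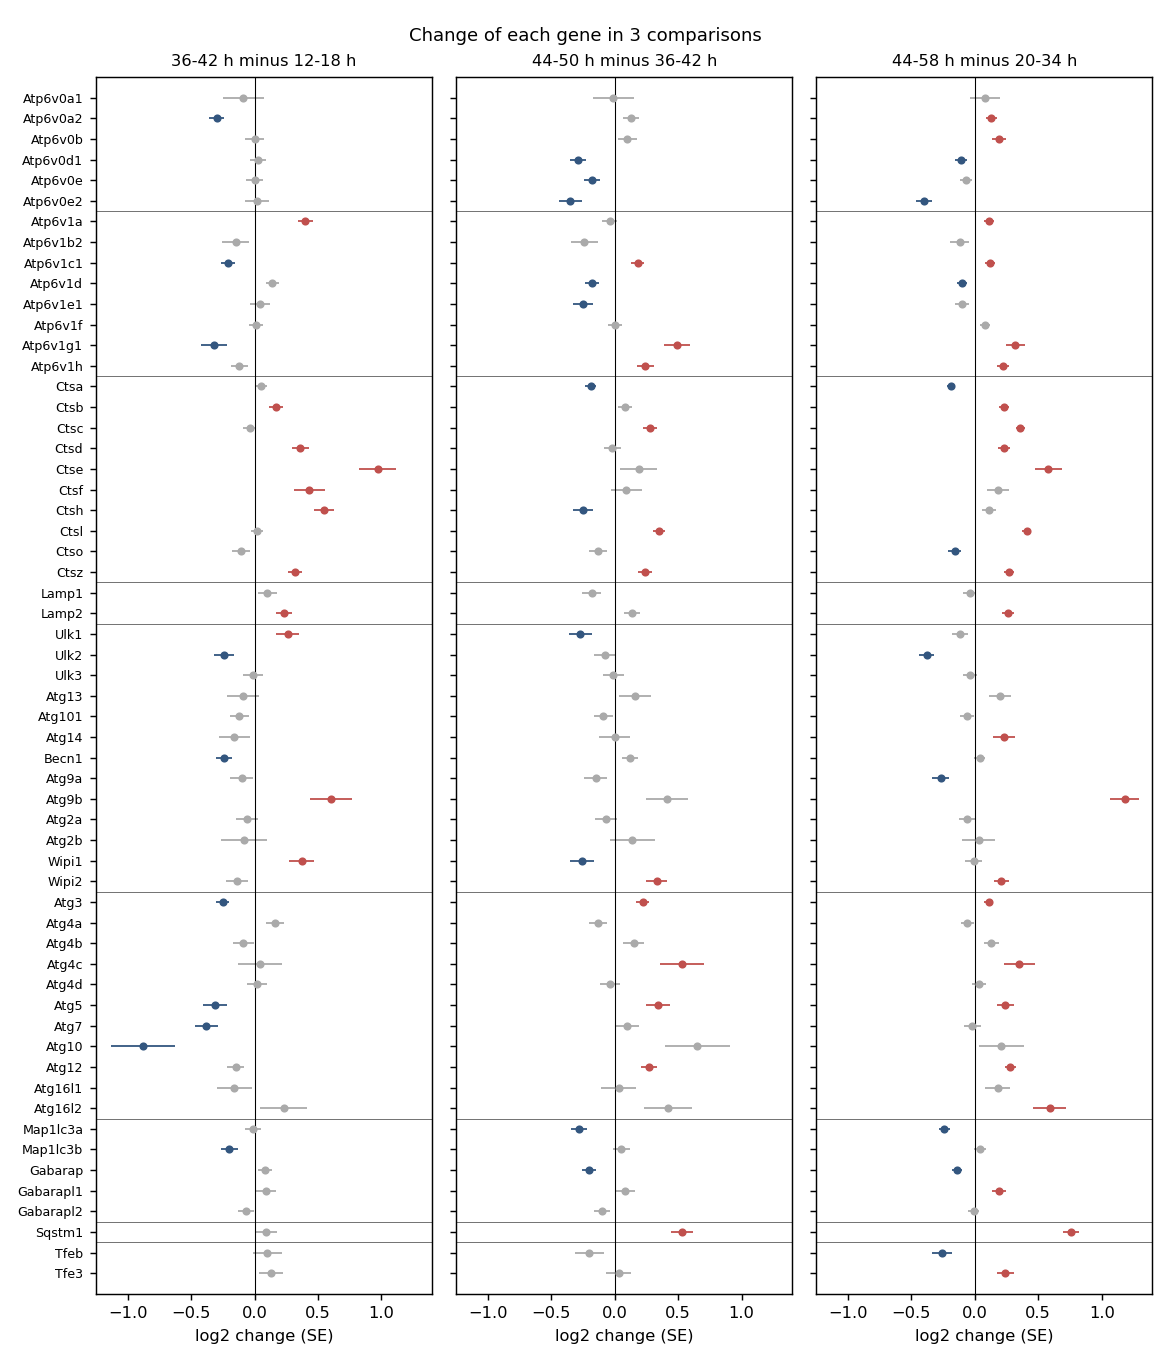
Log2 change of each of the 58 measured genes (points, with 1 SE either side) in 3 panels: 36 to 42 h minus 12 to 18 h, 44 to 50 h minus 36 to 42 h, and 44 to 58 h minus 20 to 34 h. Red points rose, blue points fell and grey points did not pass limma's test at an adjusted p of 0.05; lines divide the roles from the V0 subunits at the top to the transcription factors, and Atg9b (1.18) and Sqstm1 (0.76) lie farthest right in the last panel.

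Before the late step the counts were even. At 36 to 42 h, 11 genes were higher than at 12 to 18 h (19.0%, against 14.3% of all measured genes) and 10 were lower (17.2%, against 12.1%), with medians of -0.001 for the 58 and 0.001 for all genes. The 4 pairs of equal clock time were also taken as a block, in a fit on these 8 arrays alone with 3 residual degrees of freedom. There 6 of the 11 rises held (Atg9b, Atp6v1a, Ctsd, Ctse, Ctsh and Wipi1) and none of the 10 falls (limma). Of all measured genes 6.83% were higher and 3.62% lower in that fit. At an unadjusted p under 0.05 in it, 9 of the 58 genes were lower, against 1202 of all 9825. At the step, 12 genes were higher at 44 to 50 h than at 36 to 42 h (20.7%, against 20.5% of all) and 11 lower (19.0%, against 12.7%), with medians of 0.03 and 0.04. That split also moved with the scaling, to 12 higher and 14 lower after quantile normalization and to 8 and 16 with centred arrays. The median change of all measured genes at the step moved down as well, to -0.02 and -0.028. Without the array of 40 h the counts were 10 higher and 6 lower before the step, 26 and 10 across it, and 11 and 9 at it. Leaving out the array of 42 h gave 6 lower before the step and 7 lower at it, and leaving out that of 14 h gave 7 higher before it.

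**Figure D2:**
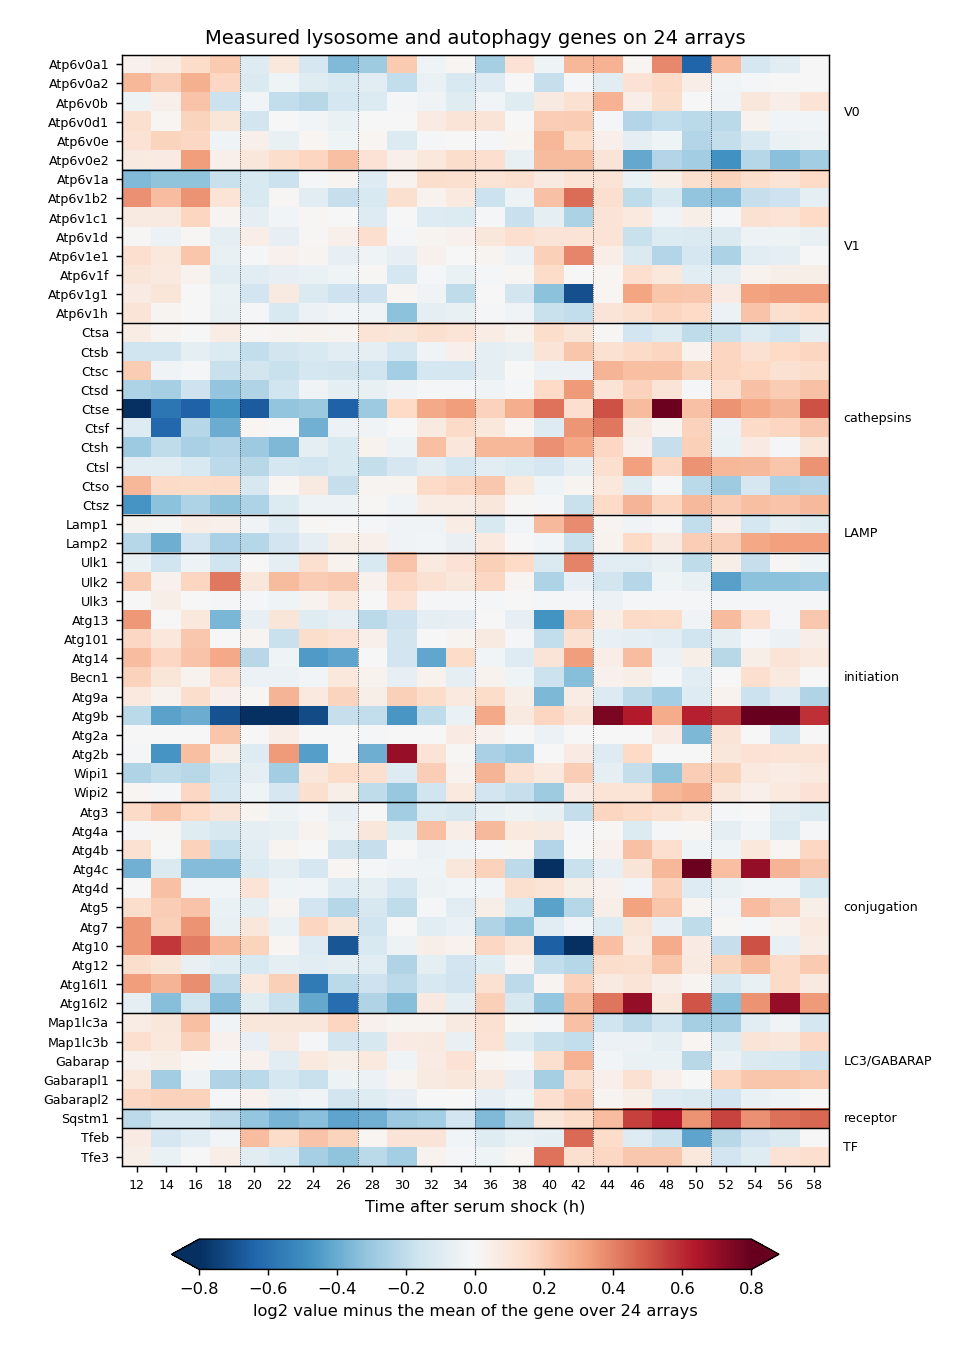
Log2 value of each of the 58 measured genes (rows, ordered by role) on each of the 24 arrays (columns, h after serum shock), as the difference from the gene's mean over the 24 arrays, from blue (lower) to red (higher). Dotted lines divide the 8 h windows; Sqstm1, Ctsl and Atg9b are red in the columns from 44 h on, and Atp6v0e2 and Ulk2 blue in most of them.

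Sqstm1, the cargo receptor p62, rose late and stayed high. On the 8 arrays of 20 to 34 h it ranged from 13.50 to 13.77 with a median of 13.60, and on the 8 of 44 to 58 h from 14.17 to 14.55 with a median of 14.37. The ranges do not overlap, and the change was 0.76 ± 0.063 (SE), or 1.7-fold (limma, adjusted p = 1.45e-09). The values were already higher at 40 and 42 h: they read 13.57, 13.70, 14.02 and 14.07 at 36, 38, 40 and 42 h, and 14.17, 14.47, 14.55 and 14.28 at 44, 46, 48 and 50 h. The step between these windows was 0.53 ± 0.089 (adjusted p = 0.000118), and between 12 to 18 h and 36 to 42 h the change was 0.09 ± 0.089 (adjusted p = 0.472).

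**Figure D3:**
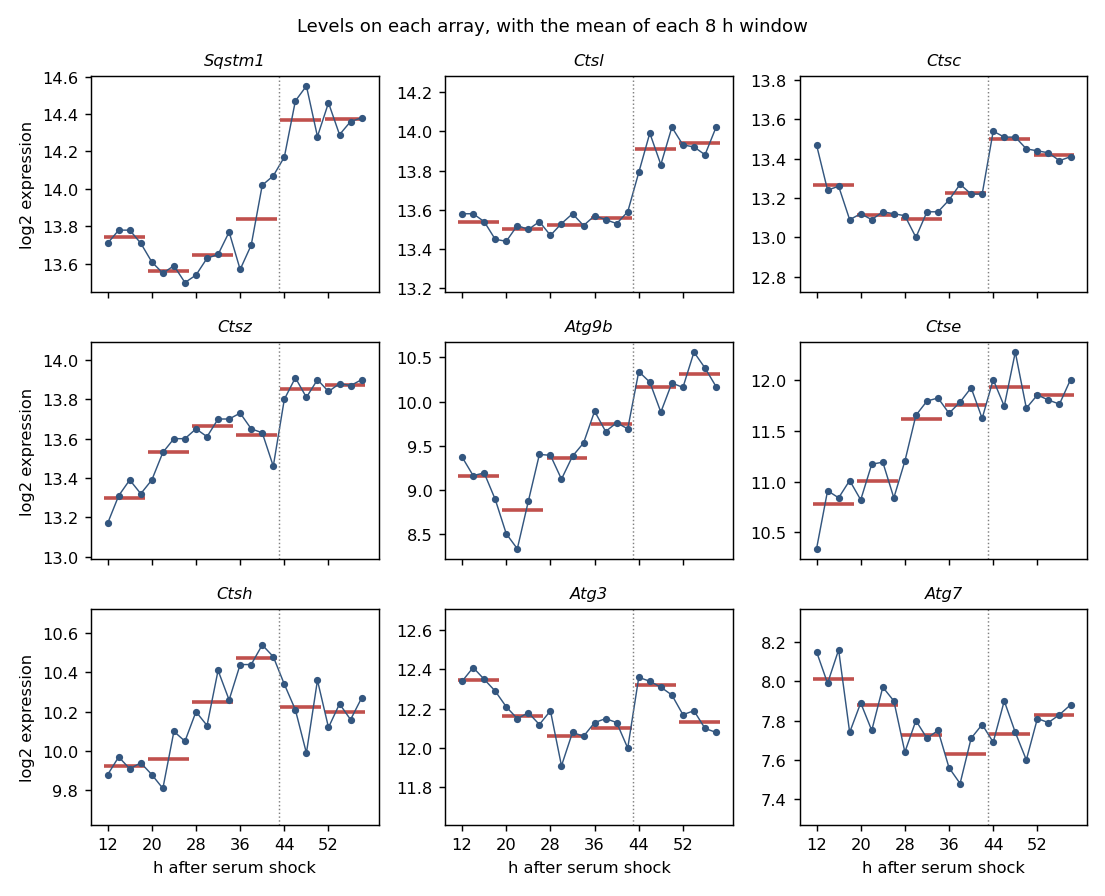
Log2 value on each array (points, joined in time order) against h after serum shock for Sqstm1, 5 cathepsins and 3 autophagy genes, with the mean of each 8 h window as a red bar and a dotted line between 42 and 44 h. Each panel has its own vertical scale; the last 8 arrays of Sqstm1, Ctsl, Ctsc, Ctsz and Atg9b lie above the 8 arrays of 20 to 34 h, while Ctsh is highest at 36 to 42 h.

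The related transcription factors moved in opposite directions across the late step. Tfeb, which is held in the cytoplasm by mTORC1 until nutrients fall, ranged from 7.23 to 7.50 with a median of 7.38 at 20 to 34 h and from 6.83 to 7.40 with a median of 7.12 at 44 to 58 h. It fell by 0.26 ± 0.08 on the log2 scale (adjusted p = 0.0107), with overlapping ranges; the linear term over the time course gave -0.19 and did not pass (adjusted p = 0.257). Tfe3, its close relative, ranged from 8.69 to 9.04 with a median of 8.85 and later from 8.86 to 9.23 with a median of 9.14, a rise of 0.24 ± 0.067 (adjusted p = 0.00471), again with overlap. Neither passed the test before the step (0.10 ± 0.114 for Tfeb and 0.13 ± 0.095 for Tfe3) or at it (-0.20 ± 0.114 and 0.03 ± 0.095), although Tfeb passed at the step after quantile normalization (-0.31, adjusted p = 0.0379). Single arrays stood out in both genes, 7.71 at 42 h for Tfeb beside 7.16 to 7.20 at 36 to 40 h, and 9.45 at 40 h for Tfe3 beside 8.98, 9.03 and 9.14 in the same window. These are levels of RNA; where the proteins lay in the cell was not measured.

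The ubiquitin-like proteins that coat the autophagosome did not move as a family, and of 5 measured members 1 rose and 2 fell across the late step (20.0% and 40.0%, against 32.6% and 20.1% of all measured genes). Map1lc3a, one of the LC3 genes, ranged from 11.30 to 11.45 with a median of 11.36 at 20 to 34 h and from 11.01 to 11.25 with a median of 11.12 at 44 to 58 h. These ranges do not overlap, and it fell by 0.24 ± 0.045 (adjusted p = 0.00012). The drop lay between 42 h and 44 h: the values at 36 to 42 h were 11.40, 11.29, 11.26 and 11.51 and those at 44 to 50 h were 11.12, 11.07, 11.12 and 11.01, a change of -0.28 ± 0.063 (adjusted p = 0.00162). A second probe set of Map1lc3a fell as well, by 0.29 across the late step and by 0.41 at the step.

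Gabarap, the founding member of the GABARAP branch, fell by 0.14 ± 0.04 across the late step (adjusted p = 0.00506), from a range of 13.67 to 13.87 and a median of 13.81 to an overlapping range of 13.53 to 13.73 and a median of 13.67. Its values at the step went from 13.77, 13.75, 13.88 and 14.03 to 13.73, 13.70, 13.70 and 13.53, without overlap (-0.20 ± 0.056, adjusted p = 0.0104). That call rests on the array of 50 h, without which the adjusted p was 0.0513, and the linear term over the time course did not pass (-0.12, adjusted p = 0.195). Gabarapl1 went the other way across the late step, from a range of 12.00 to 12.31 and a median of 12.17 to an overlapping range of 12.22 to 12.44 and a median of 12.37, a rise of 0.19 ± 0.054 (adjusted p = 0.00635).

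Map1lc3b, the LC3 gene most used as an autophagosome marker, ranged from 13.92 to 14.14 at 20 to 34 h and from 13.97 to 14.23 at 44 to 58 h and did not pass the test there (0.04 ± 0.047, adjusted p = 0.541), while 1 of its 2 other probe sets rose by 0.14 (adjusted p = 0.00128). Before the step it fell from 14.20, 14.15, 14.26 and 14.10 to 14.18, 13.97, 13.89 and 13.87 (-0.20 ± 0.067, adjusted p = 0.0359), and the windows overlap. That fall was not seen by its other probe sets, which gave 0.02 and 0.01, and it was lost when any of 6 arrays was left out. Gabarapl2 lay between 12.07 and 12.42 on all arrays and passed no comparison of windows; across the late step it gave -0.01 ± 0.045.

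**Figure D4:**
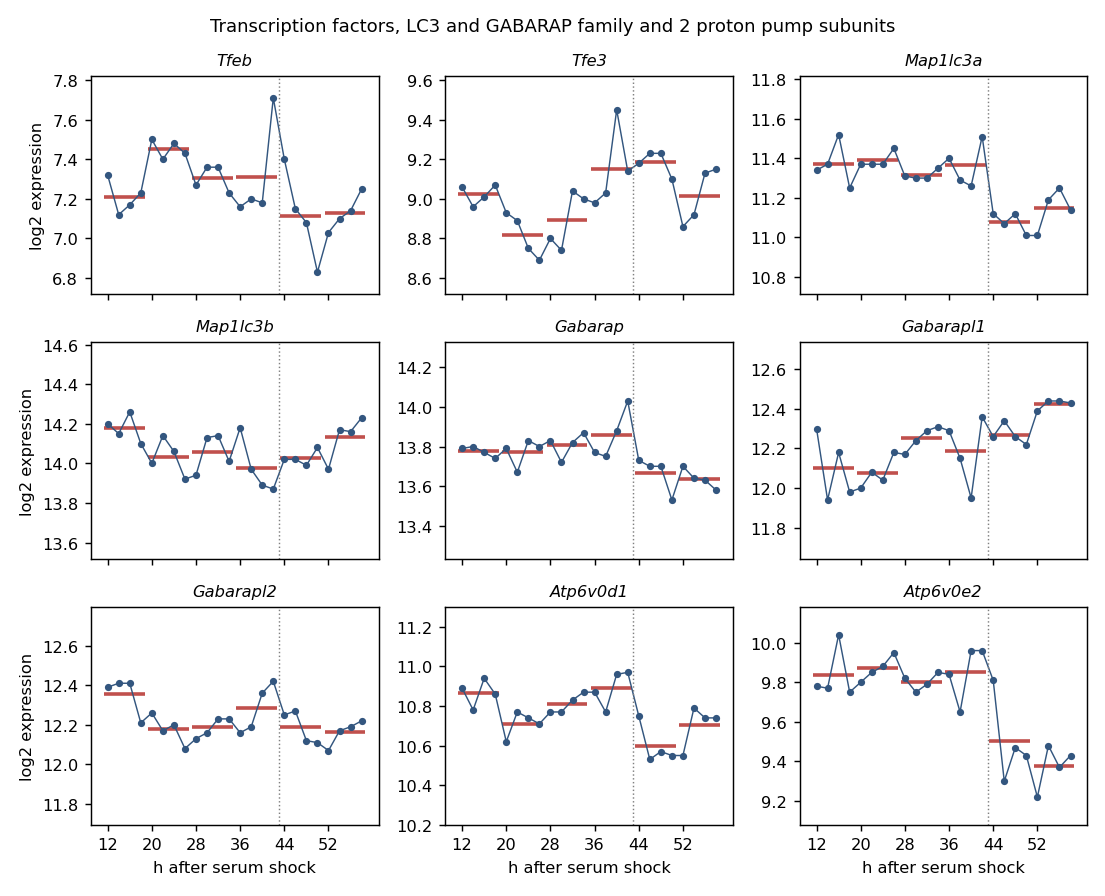
Log2 value on each array (points, joined in time order) against h after serum shock for Tfeb, Tfe3, the 5 LC3 and GABARAP genes and the proton pump genes Atp6v0d1 and Atp6v0e2, with the mean of each 8 h window as a red bar and a dotted line between 42 and 44 h. Each panel has its own vertical scale; Map1lc3a, Gabarap and Atp6v0e2 drop after 42 h or 44 h and remain low, while Gabarapl1 ends high.

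Cathepsins changed in both directions. Of 18 on the array 10 were measured, and across the late step 6 of these were higher and 2 lower (60.0% and 20.0%, against 32.6% and 20.1% of all measured genes), with a median change of 0.23. Before it 6 were higher and none lower (60.0% against 14.3% of all for higher), with a median of 0.25. These counts were the same after quantile normalization and with centred arrays. The 6 rises and 2 falls across the late step held without any single array and under each other scaling, filter and variance prior. Of the 6 rises before it, 4 did so. With arrays paired by clock time, the rises of Ctsb, Ctsf and Ctsz before the step and the fall of Ctso across it did not pass. The 8 others (Ctsg, Ctsj, Ctsk, Ctsm, Ctsq, Ctsr, Ctss and Ctsw) did not pass the filter, and 7 of them had means of 2.17; Ctss averaged 4.32 and reached 5 on 2 arrays.

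Ctsl and Ctsc rose at the step and passed no test before it. Ctsl, an endopeptidase, read 13.57, 13.55, 13.53 and 13.59 at 36 to 42 h and then 13.79, 13.99, 13.83 and 14.02 at 44 to 50 h, a rise of 0.35 ± 0.049 (adjusted p = 1.49e-05). Across the late step it rose by 0.41 ± 0.035 (1.33-fold, adjusted p = 1.91e-09), from a range of 13.44 to 13.58 and a median of 13.52 to a range of 13.79 to 14.02 and a median of 13.93. Ctsc, the dipeptidyl peptidase that activates serine proteases, went from 13.19, 13.27, 13.22 and 13.22 to 13.54, 13.51, 13.51 and 13.45 at the step (0.28 ± 0.054, adjusted p = 0.000451). In both genes the windows do not overlap, and every one of the last 8 arrays lay above the highest of the 8 arrays of 20 to 34 h. For Ctsc that range was 13.00 to 13.13 with a median of 13.12, against 13.39 to 13.54 with a median of 13.45 (0.36 ± 0.038, adjusted p = 7.75e-08). Both other probe sets of Ctsc rose in that comparison but did not pass at the step.

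Other cathepsins rose earlier. Ctsz, a carboxypeptidase, went from 13.17, 13.31, 13.39 and 13.32 at 12 to 18 h to 13.73, 13.65, 13.63 and 13.46 at 36 to 42 h (0.32 ± 0.055, adjusted p = 0.000188), without overlap. It rose again at the step, to 13.80, 13.91, 13.81 and 13.90 (0.24 ± 0.055, adjusted p = 0.00255), and its 2 other probe sets rose before and across the step too but did not pass at it; with centred arrays the first did not pass at the step either. Against 20 to 34 h the late arrays of Ctsz went up, from a range of 13.39 to 13.70 with a median of 13.61 to a range of 13.80 to 13.91 with a median of 13.88, a rise of 0.27 ± 0.039 (adjusted p = 6.79e-06).

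Ctsh, an aminopeptidase, rose before the step and then turned. Its values went from 9.88, 9.97, 9.91 and 9.94 at 12 to 18 h to 10.44, 10.44, 10.54 and 10.48 at 36 to 42 h (0.55 ± 0.079, adjusted p = 2.22e-05), without overlap. At 44 to 50 h they were 10.34, 10.21, 9.99 and 10.36, a change of -0.25 ± 0.079 without overlap (adjusted p = 0.0188), and this call was lost without the array of 40 h or of 48 h. Its change across the late step was 0.11 ± 0.056 (adjusted p = 0.115).

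Ctse, an aspartic protease of the endosome, had the largest change before the step among the 58 genes. It went from 10.34, 10.91, 10.84 and 11.01 at 12 to 18 h to 11.67, 11.78, 11.92 and 11.62 at 36 to 42 h (0.97 ± 0.147, 1.96-fold, adjusted p = 4.09e-05), without overlap, and its other probe set rose too (0.82 ± 0.148, adjusted p = 0.000287). The probe sets then differed in direction. The first rose by 0.58 ± 0.104 across the late step (adjusted p = 7.09e-05), from a range of 10.82 to 11.82 and a median of 11.20 to a range of 11.72 to 12.27 and a median of 11.83, while the other gave -0.43 ± 0.105 (adjusted p = 0.00151). The direction for Ctse after 42 h is therefore uncertain.

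Ctsd, an aspartic protease, and Ctsb, a cysteine protease, rose in both comparisons of windows 24 h apart. Ctsd gave 0.36 ± 0.066 before the step (adjusted p = 0.000347) and 0.23 ± 0.047 across it (adjusted p = 0.000357). At the step Ctsd gave -0.02 ± 0.066 (adjusted p = 0.841). Ctsb gave 0.17 ± 0.055 before the step (adjusted p = 0.0243, lost without any of 4 arrays) and 0.23 ± 0.039 across it (adjusted p = 2.80e-05). Of its 3 other probe sets, 2 did not pass before the step (0.13 and 0.08). At the step Ctsb gave 0.08 ± 0.055 (adjusted p = 0.306), while 1 of those probe sets rose by 0.42 (adjusted p = 0.000201). Ctsf rose before the step (0.43 ± 0.122, adjusted p = 0.0134), a call lost without the array of 14 h or of 42 h.

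The 2 cathepsins that fell across the late step were Ctsa and Ctso. Ctsa, the serine carboxypeptidase that protects lysosomal neuraminidase and beta-galactosidase, read 11.78, 11.75, 11.86 and 11.82 at 36 to 42 h and 11.73, 11.57, 11.61 and 11.52 at 44 to 50 h (-0.19 ± 0.044, adjusted p = 0.00194), without overlap. The 8 later arrays against the 8 earlier ones went from a range of 11.73 to 11.85 with a median of 11.78 to a range of 11.52 to 11.73 with a median of 11.59, a change of -0.19 ± 0.031 (adjusted p = 3.28e-05), and the ranges meet only at the array of 44 h. Ctso, a cysteine protease, fell by 0.16 ± 0.051 across the late step (adjusted p = 0.0122).

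Subunits of the proton pump did not change together. Of 14 measured subunits, 6 rose and 3 fell across the late step (42.9% and 21.4%, against 32.6% and 20.1% of all measured genes). Before it 1 rose and 3 fell (7.14% and 21.4%, against 14.3% and 12.1%), and at it 3 rose and 5 fell (21.4% and 35.7%, against 20.5% and 12.7%). In the membrane V0 sector 2 of 6 rose and 2 fell across the late step, and in the V1 sector 4 of 8 rose and 1 fell. With centred arrays those counts became 1 and 3 for V0 and 2 and 2 for V1. The subunits left out by the filter are the isoforms Atp6v0a4, Atp6v0d2, Atp6v1b1, Atp6v1c2, Atp6v1e2 and Atp6v1g2, with means of 2.17 to 2.40.

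Atp6v0e2, a small V0 subunit, had the largest fall of the pump. It ranged from 9.75 to 9.95 with a median of 9.83 at 20 to 34 h and from 9.22 to 9.81 with a median of 9.43 at 44 to 58 h, where only the array of 44 h (9.81) lay within the earlier range. The change was -0.40 ± 0.066 (0.759-fold, adjusted p = 3.11e-05). Its values at the step went from 9.84, 9.65, 9.96 and 9.96 to 9.81, 9.30, 9.47 and 9.43 (-0.35 ± 0.093, adjusted p = 0.00701).

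Atp6v0d1, the V0 subunit that contacts the rotor, read 10.87, 10.77, 10.96 and 10.97 at 36 to 42 h and 10.75, 10.53, 10.57 and 10.55 at 44 to 50 h, without overlap (-0.29 ± 0.063, adjusted p = 0.00123). It was again at 10.74 to 10.79 on the arrays of 54 to 58 h, and its fall across the late step (-0.11 ± 0.045, adjusted p = 0.0449) was lost when any of 11 arrays was left out. Atp6v0a2, one of the large V0 isoforms, fell early, from 8.90, 8.83, 8.92 and 8.80 at 12 to 18 h to 8.53, 8.64, 8.45 and 8.62 at 36 to 42 h (-0.30 ± 0.062, adjusted p = 0.00112), without overlap. Both of its other probe sets fell before the step as well. Its small rise across the late step (0.13 ± 0.044, adjusted p = 0.0166) did not pass under either other scaling and was reversed in both of those probe sets, at -0.09 and -0.04.

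Atp6v1a, the catalytic V1 subunit, rose early. It went from 11.47, 11.50, 11.50 and 11.64 at 12 to 18 h to 11.93, 11.95, 11.89 and 11.93 at 36 to 42 h, without overlap (0.40 ± 0.057, 1.32-fold, adjusted p = 2.05e-05), and gave -0.04 ± 0.057 at the step. The rise across the late step was 0.11 ± 0.04 (adjusted p = 0.0222), a call lost without the array of 22 h or of 28 h and under either other scaling. Atp6v1g1 and Atp6v1h, a stalk and a regulatory subunit, rose at the step (0.49 ± 0.105, adjusted p = 0.0011, and 0.24 ± 0.067, adjusted p = 0.00824) and across it (0.32 ± 0.074 and 0.22 ± 0.048), though Atp6v1h did not pass at the step with centred arrays. Atp6v1g1 had fallen before the step (-0.32 ± 0.105, adjusted p = 0.0285), a call lost without any of 4 arrays. The window of 36 to 42 h for Atp6v1g1 holds a low array at 42 h, 13.21, beside 13.91, 13.77 and 13.59; without it the step passed the test, as it did without any other single array.

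The remaining subunits changed less or passed fewer tests. Atp6v0b, of the V0 rotor, rose across the late step by 0.19 ± 0.052 (adjusted p = 0.00381), and 1 of its 2 other probe sets gave -0.05. Atp6v1c1 fell before the step by 0.21 ± 0.053 (adjusted p = 0.00481), then rose at it by 0.18 ± 0.053 (adjusted p = 0.0122) and across it by 0.12 ± 0.037 (adjusted p = 0.0088); neither rise passed with centred arrays. Atp6v1d and Atp6v1e1, of the central and the peripheral stalk, fell at the step by 0.18 ± 0.053 (adjusted p = 0.0124) and 0.25 ± 0.08 (adjusted p = 0.0211), calls lost without 1 and without any of 3 arrays. Atp6v1d also fell across the late step by 0.10 (adjusted p = 0.0383), lost without any of 10 arrays. Atp6v0e fell at the step by 0.18 ± 0.065 (adjusted p = 0.0376), a call lost without the array of 40, 42, 46 or 50 h, with no filter and with 1 variance prior. Atp6v0a1 and Atp6v1f passed no comparison, with changes across the late step of 0.08 ± 0.115 and 0.08 ± 0.038. For Atp6v1b2 the probe set of highest mean passed none either (-0.12 ± 0.075 across the late step), but at the step it passed with centred arrays (-0.31, adjusted p = 0.0328), and a second probe set fell before the step (-0.35, adjusted p = 0.000996) and across it (-0.17, adjusted p = 0.0089).

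Of the lysosomal membrane glycoproteins, Lamp2 rose, and Lamp1 did not pass on the deposited values of all arrays. Lamp2, which chaperone-mediated autophagy needs as a receptor, ranged from 12.86 to 13.14 with a median of 13.04 at 20 to 34 h and from 13.12 to 13.42 with a median of 13.29 at 44 to 58 h (0.26 ± 0.045, adjusted p = 4.25e-05). The ranges overlap, and its 3 other probe sets rose too. Lamp2 had also risen before the step (0.23 ± 0.063, adjusted p = 0.0108). That call was lost without the array of 14 h and was not passed by 2 of its 3 other probe sets. At the step Lamp2 gave 0.14 ± 0.063 and did not pass (adjusted p = 0.0855). Lamp1 gave -0.04 ± 0.053 across the late step, with its highest values, 13.35 and 13.47, at 40 and 42 h. At the step it gave -0.18 ± 0.075 (adjusted p = 0.0727), which passed with centred arrays (-0.25, adjusted p = 0.0253) and without the array of 36 h (adjusted p = 0.00644) or of 38 h (adjusted p = 0.0329). Lamp5 did not pass the filter.

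Among the 13 measured genes of initiation and membrane supply, 3 rose and 2 fell across the late step (23.1% and 15.4%, both below the 32.6% and 20.1% of all measured genes). Before it 3 rose and 2 fell as well (23.1% and 15.4%, against 14.3% and 12.1%). After quantile normalization the first of these counts became 2 and 5. Atg9b had the largest change of the 58 genes. It is one of a pair of lipid scramblases that carry membrane to the growing autophagosome, and it ranged from 8.33 to 9.53 with a median of 9.25 at 20 to 34 h and from 9.88 to 10.56 with a median of 10.21 at 44 to 58 h, without overlap. The rise was 1.18 ± 0.116 (2.26-fold, adjusted p = 2.34e-08). It had begun by 36 to 42 h, when the values were 9.89, 9.66, 9.76 and 9.69 against 9.37, 9.16, 9.19 and 8.89 at 12 to 18 h (0.60 ± 0.164, adjusted p = 0.0101), and the step of 0.41 ± 0.164 did not pass (adjusted p = 0.0581).

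Atg9a, the other scramblase, fell. It ranged from 8.70 to 8.96 with a median of 8.81 at 20 to 34 h and from 8.42 to 8.72 with a median of 8.55 later, a change of -0.27 ± 0.064 (adjusted p = 0.00104); only the array of 52 h, at 8.72, reached into the earlier range. Ulk2, a kinase that starts autophagy, fell by 0.38 ± 0.056 (adjusted p = 7.69e-06), from a range of 9.97 to 10.19 with a median of 10.08 to a range of 9.50 to 9.90 with a median of 9.67, without overlap. Of its other probe sets 1 fell by 0.51 (adjusted p = 1.44e-07) and 1, at -0.14, did not pass. Its relative Ulk1 gave -0.12 ± 0.063 across the late step (adjusted p = 0.106), but fell by 0.18 under quantile normalization (adjusted p = 0.00984) and with centred arrays (adjusted p = 0.0099). Before the step Ulk1 rose by 0.26 ± 0.088 (adjusted p = 0.0353) and Ulk2 fell by 0.24 ± 0.08 (adjusted p = 0.0309), but these calls were lost without any of 6 and any of 4 arrays. At the step Ulk1 fell by 0.27 ± 0.088 (adjusted p = 0.0241), a call lost without the array of 42 h or of 50 h.

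Wipi1 and Wipi2 bind the phosphoinositide made by the Becn1 complex. Wipi1 rose before the step (0.37 ± 0.096, adjusted p = 0.00653), although none of its 5 other probe sets passed that test. At the step Wipi1 fell by 0.26 ± 0.096 (adjusted p = 0.042), a call lost without any of 6 arrays and not passed by its other probe sets. Wipi2 rose at the step (0.33 ± 0.085, adjusted p = 0.00474) and across it (0.21 ± 0.06, adjusted p = 0.00605). Becn1 fell before the step by 0.24 ± 0.063 (adjusted p = 0.00754), with 13.14 and 12.97 at 40 and 42 h, while its second probe set gave 0.01. Atg14, which directs that complex to autophagy, rose across the late step by 0.23 ± 0.086 (adjusted p = 0.0271), a call lost without any of 6 arrays. Atg13 and Atg101, partners of the Ulk kinases, and the lipid carriers Atg2a and Atg2b passed no comparison, with changes across the late step of 0.20 ± 0.088, -0.06 ± 0.054, -0.06 ± 0.062 and 0.03 ± 0.128. Ulk3, with a mean of 5.24, and Atg16l2 of the conjugation genes, with 5.42, were the measured genes closest to the filter, and Ulk3 passed no comparison; outside it, Ulk4 averaged 3.48.

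Of the conjugation enzymes and the Atg4 proteases that ready LC3 for them, all 11 on the array were measured. Before the step 4 fell and none rose (36.4%, against 12.1% of all measured genes lower), with a median change of -0.15, and at the step 4 rose and none fell (36.4%, against 20.5% of all higher), with a median of 0.22. Both counts use the arrays of 36 to 42 h, so low values there give opposite signs in the pair. In the comparison across the late step, which does not use those arrays, 5 rose and none fell (45.5%, against 32.6% of all higher), with a median of 0.18. After quantile normalization 4 rose and 1 fell both across the late step and at it, and with centred arrays 3 rose and 1 fell at the step. Of the 4 falls before the step, 2 held without any single array and under each other scaling, filter and variance prior. The same was true of 2 of the 4 rises at the step and 3 of the 5 across it. With arrays paired by clock time, none of the falls before the step (Atg3, Atg5, Atg7 and Atg10) passed.

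Atg3, the enzyme that joins LC3 to lipid, fell and then rose. Its values were 12.34, 12.41, 12.35 and 12.29 at 12 to 18 h, then 12.13, 12.15, 12.13 and 12.00 at 36 to 42 h, a fall without overlap (-0.25 ± 0.052, adjusted p = 0.0012). At 44 to 50 h they were 12.36, 12.34, 12.31 and 12.27 (0.22 ± 0.052, adjusted p = 0.00273), and at 52 to 58 h they were down to 12.17, 12.19, 12.10 and 12.08. Its change across the late step was 0.11 ± 0.036 (adjusted p = 0.0117), with ranges of 11.91 to 12.21 and 12.08 to 12.36 that overlap. Neither that change nor the one at the step passed with centred arrays.

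Atg7, the enzyme that activates LC3 and Atg12, fell before the step from 8.15, 7.99, 8.16 and 7.74 to 7.56, 7.48, 7.71 and 7.78 (-0.38 ± 0.092, adjusted p = 0.00416), with overlapping windows, as did both of its other probe sets, and gave -0.02 ± 0.065 across the late step. Atg5 and Atg12, which are joined to each other, rose at the step (0.34 ± 0.094, adjusted p = 0.0092, and 0.27 ± 0.064, adjusted p = 0.00281) and across it (0.24 ± 0.066 and 0.28 ± 0.045). Atg5 had fallen before the step (-0.31 ± 0.094, adjusted p = 0.0185), a call lost without any of 3 arrays. The second probe set of Atg12 (0.16, adjusted p = 0.101) and 1 of the 2 other probe sets of Atg5 did not pass at the step. For Atg12 the 8 late values, 9.84 to 10.02 with a median of 9.94, lay above the 8 earlier ones, 9.53 to 9.70 with a median of 9.68. Atg10, which joins Atg12 to Atg5, fell before the step by 0.88 ± 0.255 (adjusted p = 0.0138), but the window of 36 to 42 h read 6.97, 6.91, 6.15 and 5.24, and the call was lost without the array of 42 h (adjusted p = 0.057). Atg16l2 rose by 0.59 ± 0.132 across the late step (adjusted p = 0.000777) at levels of 4.81 to 6.12. Of the Atg4 proteases only Atg4c passed, rising at the step by 0.53 ± 0.172 (adjusted p = 0.0229) and across it by 0.35 ± 0.122 (adjusted p = 0.019), and both calls were lost without the array of 50 h. Atg4a, Atg4b, Atg4d and Atg16l1 passed no comparison, with changes across the late step between -0.06 and 0.18.

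A 24 h rhythm passed the test in 3 of the 58 genes (5.17%), where 2.77% of all measured genes passed. Tfe3 had an amplitude, the height of the fitted peak over the mean, of 0.19 ± 0.037 with its peak at 16.4 h and again 24 h later (adjusted p = 0.0228). Gabarapl2 had an amplitude of 0.11 ± 0.023 with a peak at 15.4 h (adjusted p = 0.0367), and Atp6v0e one of 0.11 ± 0.025 with a peak at 15.5 h (adjusted p = 0.0484). Atp6v0e read 12.62, 12.68, 12.67 and 12.47 at 12 to 18 h and 12.49, 12.52, 12.77 and 12.65 at 36 to 42 h, and lay between 12.27 and 12.54 at all other times. None of the 3 passed when the array of 40 h or of 26 h was left out, and Tfe3 did not pass without the drift term (amplitude 0.12, adjusted p = 0.231). The median amplitude of the 58 genes was 0.07, against 0.08 over all genes. These values use a linear drift, and the count of rhythmic genes depended on that choice. Without a drift term 4 genes passed, with a quadratic drift 8, and with a linear drift plus an indicator from 44 h 10. The share of all measured genes was counted only with the linear drift.

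The 6 genes with the palindrome at their promoters did not share a direction. In the comparison across the late step Ctsd (0.23), Atp6v1a (0.11) and Atg3 (0.11) rose, Ctsa (-0.19) and Atp6v0d1 (-0.11) fell, and Atp6v0e (-0.07 ± 0.046) did not pass, while Tfeb fell and Tfe3 rose. Among these genes with the palindrome, only the calls of Ctsd and Ctsa held without any single array and under each other scaling, filter and variance prior. Before the step Ctsd and Atp6v1a rose and Atg3 fell. At it Atg3 rose and Ctsa, Atp6v0d1 and Atp6v0e fell, but the calls of Atg3 and Atp6v0e did not hold under all of those settings.

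Other genes of the lysosome and of autophagy, grouped by function, gave the setting for these changes. Of 31 measured lysosomal hydrolases and activators, 11 rose and 1 fell before the step (35.5% and 3.23%, against 14.3% and 12.1% of all measured genes). Across it 10 rose and 5 fell (32.3% and 16.1%), shares near the 32.6% and 20.1% of all genes. The latter count turned with the scaling, to 7 and 9 after quantile normalization and to 6 and 10 with centred arrays. Acp2, a lysosomal acid phosphatase, rose by 0.41 ± 0.06 across the late step (adjusted p = 5.73e-06) and Gla, alpha-galactosidase A, by 0.51 ± 0.082 (adjusted p = 1.77e-05). Man2b1 and Fuca1, which trim mannose and fucose, each fell by 0.25 (adjusted p = 0.000396 and 0.00161).

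Of 28 measured membrane and trafficking proteins of the lysosome, 15 rose and 3 fell across the late step. These are 53.6% and 10.7%, against 32.6% and 20.1% of all measured genes. The counts became 10 and 3 after quantile normalization and 10 and 4 with centred arrays. Both scalings also lowered the median change of all genes, to -0.004 and -0.008. Npc1, which exports cholesterol from lysosomes, rose by 1.38 ± 0.121, or 2.6-fold (adjusted p = 3.74e-09), and by 1.26 ± 0.171 at the step. Atp6ap2, an accessory protein of the proton pump, rose by 0.59 ± 0.042 (adjusted p = 1.04e-10). Ap1s1, of the adaptor that sorts lysosomal proteins, fell by 0.29 ± 0.056 (adjusted p = 0.000182), and Gnptab, which makes the mannose 6-phosphate tag, by 0.19 ± 0.05 (adjusted p = 0.00366).

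Of 36 other genes of the autophagy machinery, 11 rose and 8 fell across the late step (30.6% and 22.2%, near the 32.6% and 20.1% of all genes), and the counts became 8 and 10 after quantile normalization and 8 and 11 with centred arrays. Trp53inp1, an LC3-binding p53 target, rose by 1.09 ± 0.068 (2.14-fold, adjusted p = 9.77e-12), and Vmp1, a scramblase of the early autophagosome, by 0.37 ± 0.046 (adjusted p = 7.35e-07). Bnip3, a mitophagy receptor, fell by 1.10 ± 0.103, to 0.465 of its earlier level (adjusted p = 9.45e-09), after a rise of 0.56 ± 0.145 before the step. Vps16, a tethering subunit, fell by 0.36 ± 0.057 (adjusted p = 1.65e-05). Of 21 genes listed for the control of mTORC1, TFEB and TFE3, not all of which act at the lysosome, 5 rose and 4 fell across the late step. These are 23.8% and 19.0%, neither above the shares of all genes. Before it none rose and 3 fell (14.3% lower, against 12.1% of all). Among these 21 genes Fnip1, a partner of folliculin, rose across the late step by 0.35 ± 0.062 (adjusted p = 7.01e-05) and Rragc by 0.18 ± 0.034 (adjusted p = 0.000116). Lamtor2, of the complex that anchors mTORC1 to lysosomes, fell by 0.19 ± 0.044 (adjusted p = 0.000977), and Foxo1 by 0.28 ± 0.074 (adjusted p = 0.00302). A second probe set of each of Gla, Gnptab and Foxo1 did not pass that test.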

How the data were processed

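Total RNA of 1 cell line, 1 sample per time, was hybridised to single-colour Affymetrix arrays. The authors deposited log2 expression values; per the submitters' processing notes they used GCRMA, whose version and settings are not given in the sources used here. GCRMA subtracts background by probe sequence. Of the deposited values 41.1% sit at the lowest value, 2.17, and genes there are called not measured rather than absent. The number of arrays limits the precision. Of 45101 probe sets 34945 carry a single symbol in the platform annotation, 932 several and 9211 none, and 13 are control sets with a symbol; only the first were named. A gene is its probe set of highest mean. Probe sets reaching 5 on 6 or more arrays were kept (18526). Levels were not compared between probe sets.

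With limma 3.58.1 (R 4.3.3), means of 6 windows of 4 arrays were fitted and contrasted, and a harmonic curve of period 24 h plus a linear drift was fitted to all arrays; eBayes used an intensity trend and Benjamini-Hochberg adjustment ran over all kept probe sets. Both fits were tested on simulated data with independent noise on each array, which cannot show the error rate where neighbouring arrays drift together. Genes with values on single arrays are Tfeb, Tfe3, Sqstm1, the LC3 and GABARAP family, the 5 of smallest p per direction across the late step, the 3 per direction in the other comparisons and the 3 of smallest rhythm p; from each wider list, the 2 of smallest p per direction across the late step. Single values outside this rule, such as those of Becn1, Lamp1, Atp6v1g1 and Atg10 at 40 or 42 h, were picked after they were seen. The genes, lists and windows were chosen with earlier results of these data known. Alternatives were other scalings, no filter, 1 variance prior, other drift terms, a linear term, other probe sets, leaving out each array and, chosen after seeing the data, pairing arrays 24 h apart. Promoters are RefSeq's, read with Python 3.11.15.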

Additional observations from a re-analysis of the deposited data

Results flagged for a closer look

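For the 24 genes given by array, each 8 h window of 4 arrays was checked for 1 array far from the other 3 (Dixon's criterion), and 10 of 144 windows were picked out; chance flags about 1 in 20 groups. Tfeb read 7.71 at 42 h beside 7.16 to 7.20, and Atg3 read 12.00 at 42 h beside 12.13 to 12.15. Gabarap read 13.53 at 50 h beside 13.70 to 13.73, and Atp6v0d1 read 10.75 at 44 h beside 10.53 to 10.57. Ctsc was low on an array in each of 2 windows, at 13.09 at 22 h beside 13.12 to 13.13 and at 13.00 at 30 h beside 13.11 to 13.13. Map1lc3a read 11.45 at 26 h where the other 3 arrays read 11.37, and Gabarapl2 read 12.21 at 18 h beside 12.39 to 12.41. Ulk2 read 9.50 at 52 h beside 9.61 to 9.62, and Atp6v0e2 read 10.04 at 16 h beside 9.75 to 9.78.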

How the results depend on the processing

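The labels carry no replicate numbers to pair by. An alternative chosen after seeing the data paired arrays 24 h apart by clock time. Before the step it gave 6 genes higher and 0 lower (10.3% and 0.0%, against 6.83% and 3.62% of all measured genes). At an unadjusted p under 0.05 (limma) the counts were 10 and 9, against 1482 and 1202 of all 9825 genes. Across the late step it gave 27 and 7 (46.6% and 12.1%, against 32.5% and 20.2% of all measured genes). Leaving out 1 array at a time gave 7 to 12 genes higher and 6 to 10 lower before the step, 23 to 26 and 8 to 10 across it, 11 to 15 and 7 to 12 at it, and 0 to 4 rhythmic genes. The rhythm count was 1 after quantile normalization, with no filter and with 1 variance prior, 8 with a quadratic drift and 10 with an indicator from 44 h. The share of all measured genes was not counted under these settings, so whether 8 or 10 exceeds it is not known. Genes lower before the step numbered 6 with no filter and 5 over second probe sets; those lower at the step numbered 7 with no filter, and those lower across it 6 by a linear term over all arrays. A linear term reversed the rise across the late step in Atp6v0a2 (-0.06) and Atg3 (-0.06). Other probe sets reversed the change before the step in Map1lc3b (0.02 and 0.01), Ulk2 (0.09), Atp6v1g1 (0.13), Lamp2 (-0.06), Becn1 (0.01), Wipi1 (-0.14) and Atg5 (0.06), across it in Ctse (-0.43), Atp6v0a2 (-0.09 and -0.04) and Atp6v0b (-0.05), and at it in Wipi1 (0.08 and 0.09); the cause was not tested. Over all single-gene results and settings, 2706 values kept direction and call, 221 kept the direction only and 16 reversed.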
